A study of Mus musculus with 53 samples.

Results

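The 9 genes described here encode transcription factors that pattern the areas of the cerebral cortex, the sheet of the forebrain that is divided into motor, sensory and visual fields. They were chosen by name, not by their values, though with earlier results of these data known: Emx1, Emx2, Pax6, Nr2f1, Nr2f2, Lhx2, Sp8, Dmrta2 and Dmrt3. All 9 were matched by symbol among the 37991 gene IDs that were measured. The values come from untreated cortex of C57bl/6 mouse embryos at E16.5 (embryonic day), which the labels give as control tissue without stimulation. Its 3 libraries were deposited as 1 mean per gene, so levels carry no SD and samples could not be tested against each other. The series holds 53 samples in 19 groups, and the other 50 samples (cultured neurons and astrocytes, adult hippocampus) are not analysed here. The labels do not say which part of the cortex was taken or whether the libraries came from separate embryos.

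Areas of the cortex are laid out before its neurons form connections. Signals from the edges of the cortical sheet, FGFs at the front and WNTs and BMPs at the midline hem, set up gradients of transcription factors in the dividing radial glia. Pax6 and Sp8 are known to be high towards the front, and the others towards the back or the midline. Loss or gain of single factors shifts the borders between areas. A mean over dissected tissue holds no position, so the gradients themselves were not measured. In such bulk tissue fewer cells of a type and less RNA per cell cannot be told apart.

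Levels are given on 3 scales. The deposited unit is RPKM, read counts scaled by gene length in kilobases and by sequencing depth, where the kilobases are those of the whole gene with its introns: among low values of genes with several exons, 662 of 740 (89.5%) matched single reads with that length within 0.5%. RPM is the same value without the length. The third scale is RPM per kilobase of exon, which takes all counted reads to lie in exons. From these low values the depth came to 188 M reads over all 3 libraries (51.3, 64.8 and 71.6 M). The 95% intervals of levels below are Poisson intervals on the reads estimated from this depth. Those of ratios are binomial intervals on the estimated reads of both genes. Both kinds cover counting error only, and the spread between embryos is unknown.

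Nr2f1 and Lhx2 were the most abundant of the area factors, and Dmrt3 the least. Nr2f1 (ENSMUSG00000069171, chromosome 13), the nuclear receptor COUP-TFI of caudal and sensory fields, stood at 16.0 RPKM (15.8 to 16.1). Lhx2 (ENSMUSG00000000247, chromosome 2), a LIM homeodomain factor that commits the sheet to cortex, stood at 5.98 RPKM (5.91 to 6.04). Of the 9 genes, 8 reached 1 RPKM, where 18.8% of all gene IDs and 31.6% of protein-coding genes did so. Nr2f1 alone reached 10 RPKM, a level reached by 2.63% of gene IDs. All 9 reached 0.1 RPKM, as did 36.9% of gene IDs.

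The middle of the order was closely spaced. Nr2f2 (ENSMUSG00000030551, chromosome 7), the paralog COUP-TFII, stood at 3.76 RPKM. Emx2 (ENSMUSG00000043969, chromosome 19), a homeodomain factor needed for the size of caudal and medial fields, stood at 2.80 RPKM. Dmrta2 (ENSMUSG00000047143, chromosome 4), a DM-domain zinc finger factor of the caudomedial cortex also called DMRT5, stood at 2.29 RPKM. Emx1 (ENSMUSG00000033726, chromosome 6), the other empty spiracles homeobox gene, stood at 1.82 RPKM. Neighbours in this order had counting intervals that did not overlap, such as 1.77 to 1.87 RPKM for Emx1 and 1.54 to 1.61 for Pax6. With no spread between libraries, this does not show that such neighbours differ between animals.

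In RPKM the factors known to be high at the front were the lowest but for Dmrt3, which held for Sp8 but not for Pax6 in RPM. Pax6 (ENSMUSG00000027168, chromosome 2), the paired-box factor of rostrolateral cortex and of radial glia, stood at 1.57 RPKM. Sp8 (ENSMUSG00000048562, chromosome 12), a zinc finger factor that acts with Fgf8 at the front, stood at 1.17 RPKM (1.11 to 1.24). Dmrt3 (ENSMUSG00000042372, chromosome 19), a DM-domain factor of the caudomedial cortex, stood at 0.141 RPKM (0.127 to 0.156), on an estimated 360 reads. The distance from Nr2f1 to Dmrt3 was 113-fold in RPKM. It was 94.8-fold between the highest and lowest gene in RPM, and 52.7-fold per kilobase of exon.

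The order depended on how gene length was counted, because these genes differ in how much of their span is intron. The span was 7.80 times the exon length in Emx1 and 6.93 times in Lhx2, but 1.37 times in Sp8 and 1.72 times in Nr2f2. By exon length Lhx2 was the highest at 41.4, followed by Nr2f1 at 33.8. Emx1 moved from the sixth place to the third, at 14.2. Emx2 (6.51, with 6.30 to 6.72) and Nr2f2 (6.46, with 6.33 to 6.58) could not be told apart by counting error on this scale. Dmrta2 stood at 4.41, Pax6 at 3.83, Sp8 at 1.61 and Dmrt3 at 0.785. Sp8 and Dmrt3 held the last places on each of the 3 scales. In RPM, with no length, the highest were Lhx2 at 182 and Nr2f1 at 172, and Pax6 (44.8) stood above Emx1 (31.0), Emx2 (19.5) and Dmrta2 (12.9).

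**Figure D1:**
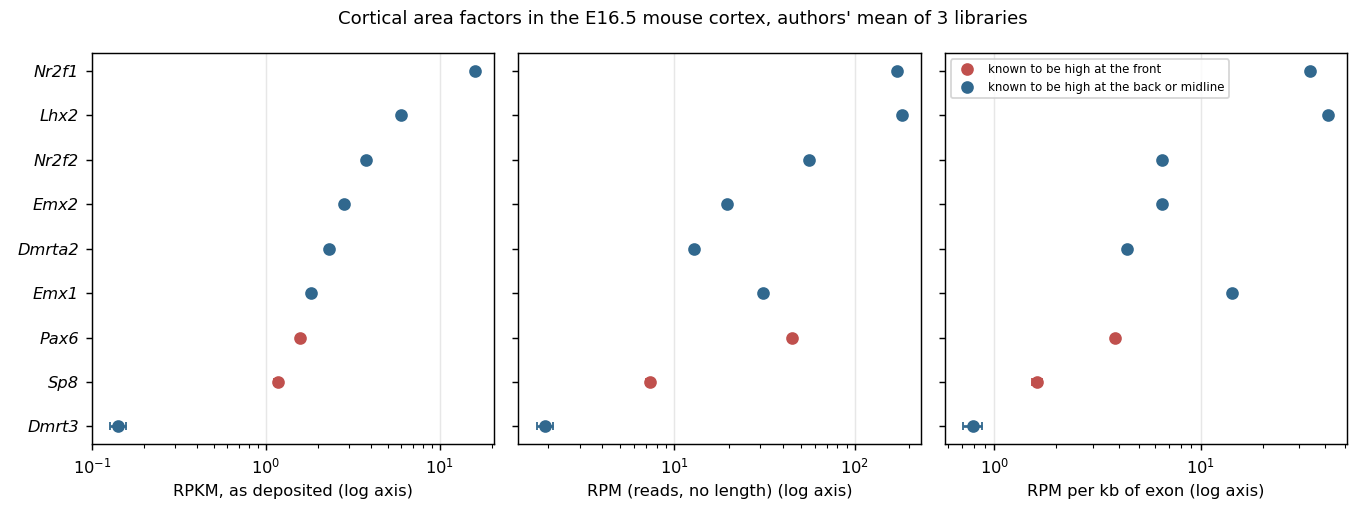
Levels of the 9 area factors in the E16.5 cortex as RPKM, as RPM and as RPM per kilobase of exon (log axes), with 95% counting intervals, most of them narrower than the points. Nr2f1 and Lhx2 lie to the right in each panel and Dmrt3 to the left, while Emx1 and Pax6 change place between panels.

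Pax6 was the member whose exon value depended most on the transcript models. Its exons together covered 11.7 kb in the annotation, while its longest principal transcript has 2.87 kb. Per kilobase of that transcript Pax6 stood at 15.6 and held the fourth place, below Emx1 at 19.8 and above Nr2f2 at 13.2. For Sp8 and Dmrta2 the values by transcript, 1.64 and 4.41, were close to or the same as those by exon. Spans of the 9 genes in GENCODE M21 were 0.964 to 1.09 times those in RefSeq, so the choice between these annotations moved their reads by no more than that. The spans of the older build mm9, which the authors used, were not available here. A gene whose span differed there would have other RPM, reads and exon values.

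Set among all gene IDs above 0, the area factors lay in the upper part of the distribution, with Dmrt3 near its middle. The median of the 9 was 2.29 RPKM, against 0.196 RPKM over the 24426 gene IDs above 0 and 0.450 RPKM over protein-coding genes above 0. Nr2f1 exceeded 97.5% of gene IDs above 0, Lhx2 92.7%, Nr2f2 88.4%, Emx2 85.1% and Dmrta2 82.4%. Emx1 exceeded 79.2%, Pax6 77.2%, Sp8 73.0% and Dmrt3 46.3%. Against protein-coding genes above 0 the shares were lower, at 96.8% for Nr2f1, 70.6% for Pax6, 65.5% for Sp8 and 37.2% for Dmrt3. Per kilobase of exon Lhx2 exceeded 96.7% of genes above 0, Nr2f1 95.6%, Emx1 86.7%, Emx2 73.3% and Nr2f2 73.1%. Dmrta2 exceeded 66.6% there, Pax6 64.5%, Sp8 53.5% and Dmrt3 46.4%. On that scale 8 of the 9 reached 1, as did 35.5% of genes with a length, and 3 (Lhx2, Nr2f1 and Emx1) reached 10, as did 13.1%. The median of the 9 was 6.46 there, against 1.16 over genes above 0.

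**Figure D2:**
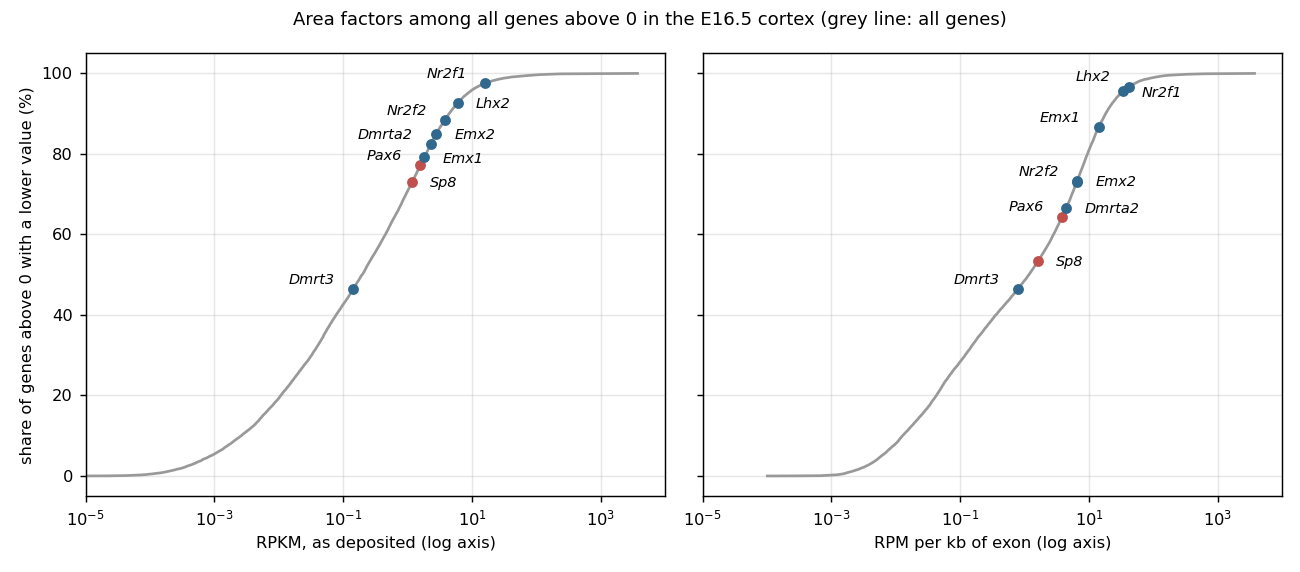
The share of genes above 0 that had a lower value (vertical axis, percent) against the level (log axis), for RPKM on the left and RPM per kilobase of exon on the right. The grey line is all genes, red points are Pax6 and Sp8, and blue points are the other area factors, with Nr2f1 at 97.5% and Dmrt3 at 46.3% on the left.

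The COUP-TF receptors were unequal on each scale. Both bind direct repeats of a nuclear receptor motif, and Nr2f2 is also known in interneurons from the caudal ganglionic eminence and in veins. Nr2f1 was 4.24-fold above Nr2f2 in RPKM (95% counting interval 4.15 to 4.34), 3.09-fold in reads and 5.24-fold per kilobase of exon. Their coding sequences were 83.2% identical over 1224 aligned bases. The longest run that they shared without a mismatch had 59 bases, in the part that encodes the DNA-binding zinc fingers. It is shown because reads that fall wholly within it could come from either gene. The capitals mark the shared run, at coding bases 232 to 290 of Nr2f1 and 220 to 278 of Nr2f2 (GENCODE M21, coding strand, with 10 bases on either side):
Nr2f1: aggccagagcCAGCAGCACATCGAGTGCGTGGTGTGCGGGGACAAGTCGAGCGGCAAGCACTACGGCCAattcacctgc
Nr2f2: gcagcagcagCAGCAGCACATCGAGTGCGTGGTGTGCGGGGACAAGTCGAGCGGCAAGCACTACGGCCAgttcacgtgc
Of the 5090 windows of 50 bases in Nr2f1 transcripts, 10 were also found in Nr2f2. No source used here gives the read length.

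Emx1 and Emx2 changed order with the scale. Emx1 marks the lineage of cortical excitatory neurons from progenitors onwards, while Emx2 is best known from progenitors. In RPKM Emx1 was 0.650 times Emx2 (0.624 to 0.678). In reads it was 1.58-fold above Emx2, and per kilobase of exon 2.18-fold above. The coding sequences were 70.0% identical over 726 aligned bases, and the longest shared run was 14 bases long. No window of 50 bases in Emx1 occurred in any other gene, and Emx2 shared windows with Emx2os alone, so reads of that length tell the pair apart. The shared run is in capitals, at coding bases 547 to 560 of Emx1 and 535 to 548 of Emx2:
Emx1: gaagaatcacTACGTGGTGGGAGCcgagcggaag
Emx2: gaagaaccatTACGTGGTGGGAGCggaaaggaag

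The DM-domain pair had the widest gap of the paralogs. Dmrta2 was 16.2-fold above Dmrt3 in RPKM (14.5 to 18.2), 6.71-fold in reads and 5.62-fold per kilobase of exon. Both have been linked to the size of the hem and to the level of Emx2. Their coding sequences were 59.0% identical over 1355 aligned bases. The longest shared run, of 24 bases, is in capitals, at coding bases 240 to 263 of Dmrta2 and 120 to 143 of Dmrt3. No window of 50 bases of either gene was shared with another gene:
Dmrta2: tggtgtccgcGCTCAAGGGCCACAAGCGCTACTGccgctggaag
Dmrt3: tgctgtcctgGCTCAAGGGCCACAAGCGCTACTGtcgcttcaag

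The promoters of this pair are printed because its members lay far apart in level and because both RefSeq starts lie within 28 bases of a principal GENCODE start. Each sequence is the 250 bases before the start (RefSeq, GRCm38.p6), 5′ to 3′ on the gene's strand. That is chr4:109977775-109978024 on the + strand for Dmrta2 and chr19:25610287-25610536 on the + strand for Dmrt3. Capitals mark matches to 6 motifs, searched on both strands: the TATA box TATAAA, the GC box GGGCGG, the CCAAT box, the homeodomain core TAATTA, the nuclear receptor core AGGTCA and the DM-domain core ACANTGT:
Dmrta2: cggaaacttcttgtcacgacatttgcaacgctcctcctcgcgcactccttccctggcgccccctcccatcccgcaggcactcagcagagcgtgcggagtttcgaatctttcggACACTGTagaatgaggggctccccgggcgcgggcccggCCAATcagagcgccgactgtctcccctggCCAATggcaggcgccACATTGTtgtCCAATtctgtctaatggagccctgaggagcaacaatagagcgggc
Dmrt3: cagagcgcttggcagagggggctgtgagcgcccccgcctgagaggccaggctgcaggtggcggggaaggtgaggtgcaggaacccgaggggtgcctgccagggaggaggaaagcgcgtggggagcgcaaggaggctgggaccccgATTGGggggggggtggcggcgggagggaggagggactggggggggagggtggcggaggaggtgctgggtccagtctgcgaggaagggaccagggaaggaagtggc
The Dmrta2 window held 3 matches to CCAAT and 2 to ACANTGT, none overlapping. The Dmrt3 window held 1 match to CCAAT and none to the other motifs. Of 32851 promoter windows of that length, 33.8% held CCAAT and 6.47% held ACANTGT. Dmrta2 had 19 CpG dinucleotides and Dmrt3 13, against a median of 6 over all windows. A match describes letters only, and no binding was measured.

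Factors with opposed gradients were also set side by side. Sp8 was 0.0734 times Nr2f1 in RPKM and 0.0475 times per kilobase of exon. Sp8 was 0.419 times Emx2 in RPKM and 0.247 times per kilobase of exon. Pax6 was 0.0986 times Nr2f1 in RPKM, 0.113 times per kilobase of exon and 0.291 times per kilobase of principal transcript. Pax6 against Emx2, the pair best known for opposed gradients, had no fixed order: the ratio was 0.563 in RPKM and 0.588 per kilobase of exon, but 2.29 in reads and 2.33 per kilobase of principal transcript. Pax6 and Sp8 together held 7.74% of the summed RPKM of the 9 genes, 4.81% of the sum per kilobase of exon and 9.59% of that per kilobase of principal transcript.

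**Figure D3:**
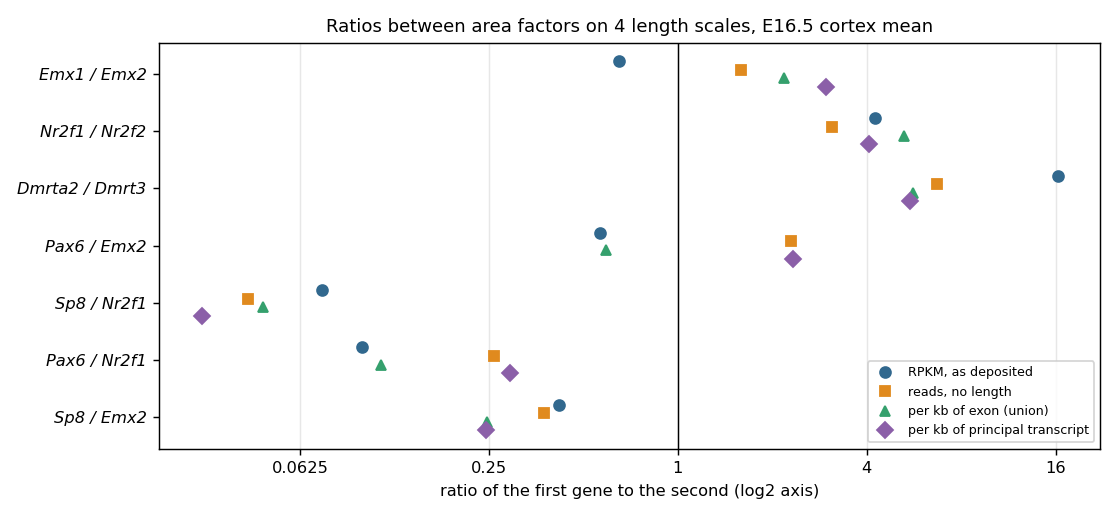
Ratios of 7 pairs of area factors (log2 axis, line at 1) in RPKM, in reads, per kilobase of exon and per kilobase of principal transcript. Emx1 / Emx2 and Pax6 / Emx2 have points on both sides of 1, while the other 5 pairs keep their order on the 4 scales.

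Several members have an RNA gene on the opposite strand, and no source used here gives the strand setting of the counting. Reads where such genes overlap cannot then be told apart. A830082K12Rik, which overlaps Nr2f1, stood at 30.9 RPM, which is 18.0% of the RPM of Nr2f1. Emx2os stood at 3.49 RPM (17.9% of Emx2). Dmrta2os, next to Dmrta2 without overlap, stood at 1.33 RPM (10.3% of Dmrta2). Gm13584 reached 1.48% of Lhx2 and Pax6os1 0.921% of Pax6. B130024G19Rik, which overlaps Nr2f2, and Gm27197, which overlaps Lhx2, had no value used here. Of the Nr2f2 windows of 50 bases, 594 of 8582 also occurred in B130024G19Rik.

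An area factor had the highest RPKM of the Pax, NR2, LIM homeobox and Dmrt families, but not of the Sp family. Pax6 was the only one of 9 Pax genes above 0.1 RPKM. The next, Pax4, stood at 0.0143 RPKM. Pax2 rested on an estimated 6.34 reads, and Pax1, Pax5, Pax7 and Pax8 on under 3 reads each. Pax3 and Pax9 were listed at 0. Of the 7 NR2 receptor genes, Nr2f1 and Nr2f2 were followed by Nr2e1 (1.35 RPKM), the Tlx receptor of neural stem cells, Nr2c2 (1.08), Nr2f6 (0.748) and Nr2c1 (0.245). The eye gene Nr2e3 was listed at 0. Scaled by exon length, Nr2e1 (7.89) stood above Nr2f2.

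Lhx2 was followed among 11 measured LIM homeobox genes by Lhx6 (2.75 RPKM), a gene of interneurons from the medial ganglionic eminence. Lhx5 (0.439) and Lhx1 (0.375), which Cajal-Retzius cells express, and Lhx9 (0.213) came next. The other 6 were under 0.1 RPKM, with Isl2 listed at 0. In the Dmrt family Dmrta2 was the highest, followed by Dmrt2 (0.430), Dmrtb1 (0.180) and Dmrt3, while Dmrta1, Dmrtc1a and Dmrtc2 were under 0.1 RPKM and Dmrt1 was listed at 0. Sp8 stood below the widely expressed Sp1 (2.25) and Sp3 (2.06) and above Sp4 (0.793), its closest relative Sp9 (0.787) and Sp2 (0.502). Scaled by exon length, Sp8 held the sixth place of the family, with Sp9 (1.99), Sp2 (4.35), Sp1 (8.25), Sp4 (9.14) and Sp3 (18.4) above it.

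**Figure D4:**
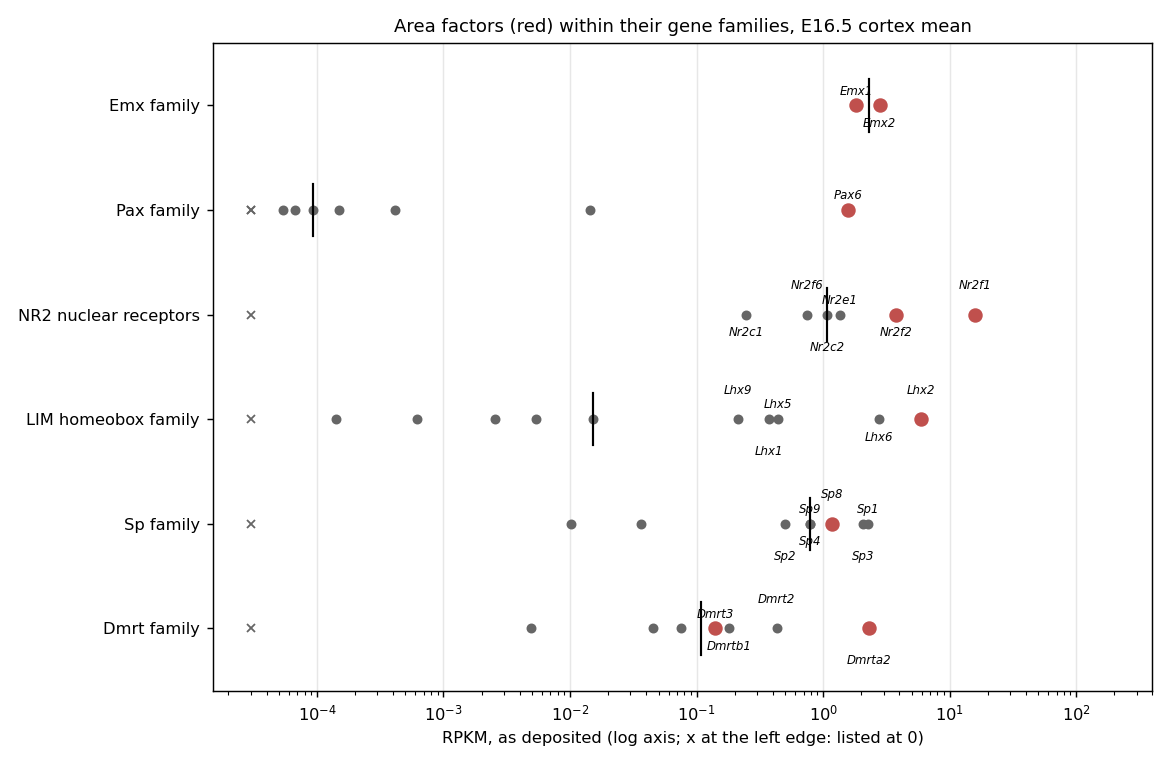
Deposited RPKM (log axis) of each measured gene of 6 families, with area factors in red, other genes in grey, crosses for genes listed at 0 and a bar at the family median. Pax6 stands apart from the other Pax genes, and Nr2f1, Nr2f2, Lhx2 and Dmrta2 lie at the right end of their families.

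In RPKM the FGF ligands and hem genes that set up the gradients stood below all area factors but Dmrt3, which was not so by exon length. None of 5 rostral FGF ligands reached 1 RPKM: Fgf15 stood at 0.293, Fgf18 at 0.0671, Fgf17 at 0.0423 and Fgf3 at 0.0276, and Fgf8 was listed at 0, where 3 reads over the 3 libraries would give 0.00261 RPKM. By exon length Fgf18 stood at 1.69, beside 1.61 for Sp8. The receptors Fgfr3 (3.03) and Fgfr1 (1.80) passed 1 RPKM. Fgfr2 stood at 0.0140 RPKM with its very long span, but at 4.02 per kilobase of exon. All 7 FGF response genes passed 0.1 RPKM, as did 36.9% of all gene IDs, and 3 passed 1 RPKM, as did 18.8%. The 7 ran from Dusp6 (6.71), a phosphatase that dampens the FGF signal, Spry2 (3.97) and Spry1 (1.54) down to Etv1 (0.293).

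The 13 hem genes had a median of 0.0290 RPKM, against 0.0423 for the FGF ligands, and of 0.200 per kilobase of exon, against 0.152. The highest were the ligand gene Wnt5a (0.493), the R-spondin gene Rspo3 (0.246) and Wnt2b (0.144). The hem ligand gene Wnt3a was the lowest at 0.000929, on an estimated 7.45 reads. None of the hem genes reached 1 RPKM, where 18.8% of all gene IDs did so. Per kilobase of exon 4 of 13 reached 1, near the share of 35.5% over genes with a length. Rspo3 stood at 6.64 there, above Emx2 (6.51) and the 5 area factors below it. Of 6 antihem genes, Sfrp2, a secreted WNT inhibitor, stood at 1.86 RPKM, Tgfa at 0.181, Nrg1 at 0.0547, Nrg3 at 0.0234, Dbx1 at 0.0177 and Fgf7 at 0.0123. By exon length 4 of these 6 reached 1, as did 35.5% of genes with a length. Sfrp2 stood at 6.89 there, Nrg1 at 5.65, Nrg3 at 3.80 and Tgfa at 2.24. Of the Hedgehog genes, Gli1 stood at 0.491, Gli3, which limits the ventral signal in the cortex, at 0.157, Gli2 at 0.0868 and Shh at 0.0222 RPKM. Gli3 was the highest of these by exon length, at 4.36.

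Partners of the area factors were broadly present. Of 24 cofactor genes, 12 reached 1 RPKM, as did 18.8% of all gene IDs, and 20 reached 0.1 RPKM, as did 36.9%. Of the 24, 23 reached 1 per kilobase of exon, as did 35.5% of genes with a length. Ldb1, which bridges LIM homeodomain factors such as Lhx2, was the highest at 18.0 RPKM, followed by Pbx2 (6.45) and the LIM-only gene Lmo4 (5.44), whose product competes for Ldb1. Meis1 was the lowest at 0.0431. Ldb1 was the only cofactor above Nr2f1 in RPKM, and the only one above Lhx2 per kilobase of exon.

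Genes that are graded across areas in young neurons ranged from Id2 (120 RPKM), Bhlhe22 (84.3), an area gene of sensory cortex, and Tbr1 (24.4) down to the ephrin gene Efna5 (0.00840). Of these 17 genes, 8 reached 1 RPKM, as did 18.8% of all gene IDs. Of the 17, 16 reached 1 per kilobase of exon, as did 35.5% of genes with a length. The median of the 17 was 0.551 RPKM, below the 2.29 RPKM of the area factors. Per kilobase of exon it was 14.8, above the 6.46 of the area factors.

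Cell markers gave the setting of these levels. Radial glia markers (9 genes) ran from 0.205 to 102 RPKM with a median of 3.86, and 7 of them stood above Pax6, or 6 per kilobase of exon. Cortical neuron markers (9) ran from 2.04 to 194 RPKM and intermediate progenitor markers (5) from 6.65 to 29.7. Nr2f2 and Sp8 are also known from interneurons and Nr2f2 from vessels. Of 12 interneuron markers 11 passed 0.1 RPKM, as did 36.9% of all gene IDs. The 12 ran from Sst (20.1) down to Adarb2 (0.0319), and their sum was 54.2 RPKM. Of these 12, 3 stood above Nr2f2 in RPKM (Sst, Dlx1 at 17.8 and Dlx2 at 6.41) and 7 per kilobase of exon. Htr3a (0.554 RPKM), Prox1 (0.248) and Adarb2 stood below Nr2f2 on both scales, at 3.16, 1.56 and 1.37 per kilobase of exon. Npy (2.96 RPKM) and Calb2 (0.367) were below Nr2f2 in RPKM only. By exon length Npy stood at 35.6 and Calb2 at 6.47, beside 6.46 for Nr2f2. Above Sp8 stood 6 of the 12 in RPKM and 10 per kilobase of exon. Of 6 endothelial markers, Cldn5 (17.3) was above Nr2f2 on both scales and the other 5 were below it, from Kdr (0.570) to Tek (0.0539). The part of these cells in the levels of Nr2f2 and Sp8 was not tested.

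**Figure D5:**
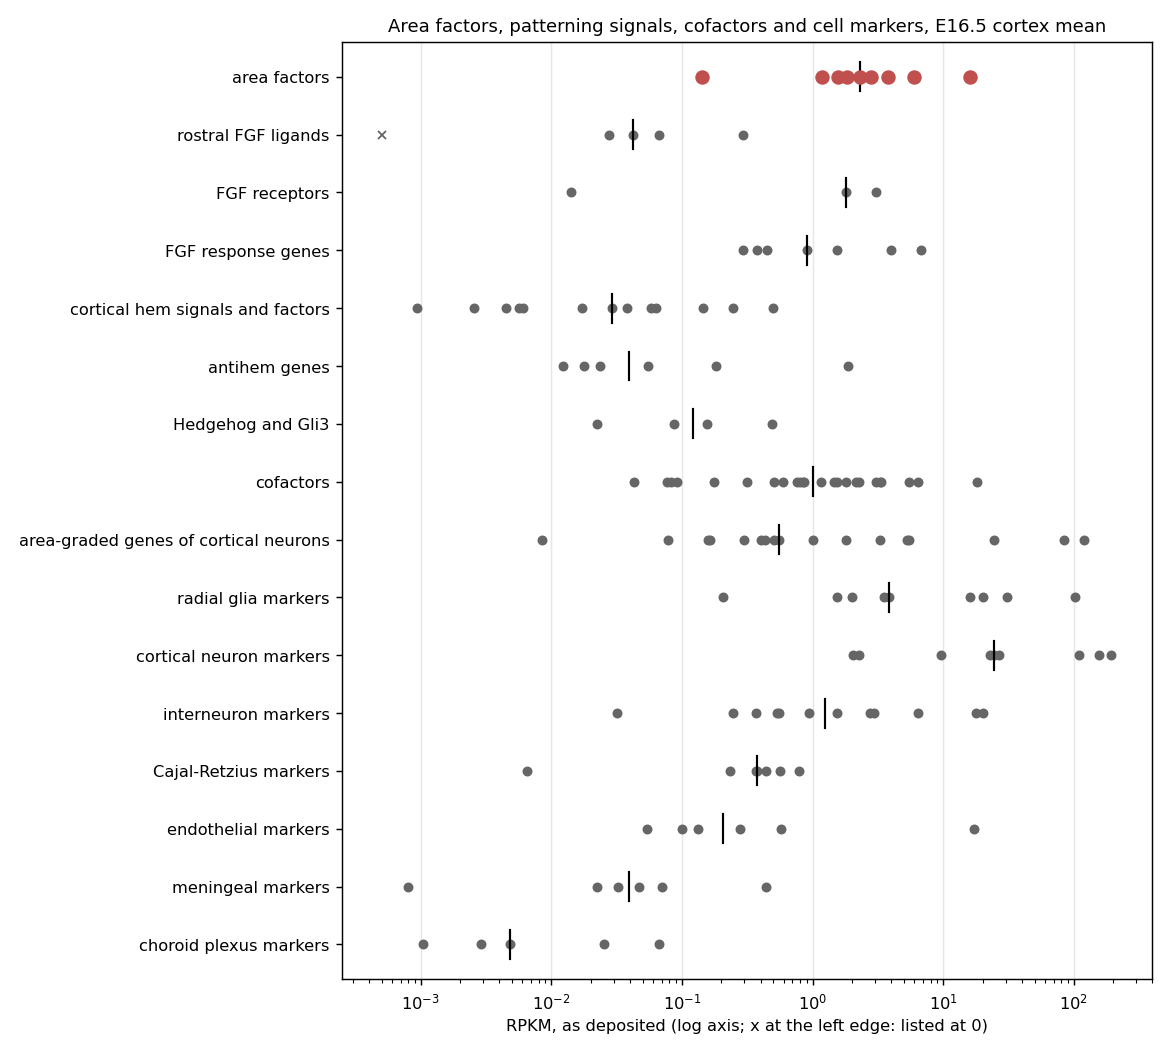
Deposited RPKM (log axis) of the genes of 16 lists, with area factors in red, other genes in grey, a cross for a gene listed at 0 and a bar at each list's median. FGF ligands and hem genes lie to the left of the area factors apart from Dmrt3, and cortical neuron markers to the right of most of them.

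Cajal-Retzius markers (7 genes, from 0.00653 to 0.786 RPKM) and microglia markers (4, from 0.274 to 0.942) did not reach 1 RPKM, but 5 of 7 and 4 of 4 of them reached 1 per kilobase of exon. Over all gene IDs 18.8% reached 1 RPKM, and of genes with a length 35.5% reached 1 per kilobase of exon. The highest Cajal-Retzius marker, Reln, stood at 15.2 on that scale, beside 14.2 for Emx1, and the highest microglia marker, Cx3cr1, at 10.2. Meningeal markers (6, up to 0.436 RPKM) and choroid plexus markers (5, up to 0.0670) reached 1 on neither scale. Pericyte markers (4) ran from 0.423 to 2.60 RPKM, and the globin genes of red blood cells (4) from 16.7 to 53.6. By median the globin genes were the highest of these lists (50.4 RPKM), followed by cortical neuron (24.4), intermediate progenitor (15.4) and radial glia markers (3.86).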

How the data were processed

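Per the labels' protocols, RNA (Trizol, then RNeasy Micro) went into TruSeq libraries that were run on a HiSeq. The authors deposited 1 column of RPKM, the mean of 3 E16.5 cortex libraries. Per the submitters' processing notes, mm9 (NCBIM37) was the build, and the tools include HTSeq 0.6.0, TopHat2 2.0.9, Bowtie2 2.1.0 and Cuffdiff 2.0.2. Which of them made the RPKM is not stated there.

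Symbols, spans, exons and transcripts came from GENCODE M21 (GRCm38), a later build, so gene coordinates are not given, and 32919 of 37991 gene IDs matched. The other 5072 stayed in counts over all gene IDs. RPM is RPKM times gene span, and estimated reads are RPM times the depth. The depth search was tested on simulated libraries. The log2 pseudocount was 0.1. Coding sequences were aligned globally with Biopython 1.88 (match 1, mismatch -1, gap open -5, extension -0.5). Other values used Python 3.11.15, pandas 2.3.3 and SciPy 1.17.1.

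The 9 genes and all lists were chosen with earlier results of these data known. The rule named all 9, family members above 0.1 RPKM, all of lists of up to 6 and of longer lists the 3 highest and the lowest above 0. Cell marker lists are mostly given by ranges, and Htr3a, Prox1, Npy and Calb2 of the interneuron list were named outside this rule. Lhx8 of the LIM homeobox and ventral telencephalon lists is not analysed here. 1 gene of the latter list is not reported here.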

Additional observations from a re-analysis of the deposited data

How the results depend on the processing

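The median of the 9 genes exceeded that of genes above 0 by 3.01 on the log2(RPKM + 0.1) scale. The difference was 1.46 with a pseudocount of 1, 3.48 with 0.01, 4.39 against all listed genes, 2.12 against protein-coding genes, 2.32 with means, 2.86 without the highest member and 2.38 per kilobase of exon. It turned to -0.17 when both sides were limited to genes at 1 RPKM or more, a limit that removes most genes of the background. Chosen after seeing the data, principal transcript lengths gave 1.53 against protein-coding genes. Of the 9 genes, 8 reached 1 RPKM, 9 reached 0.1, 1 reached 10 and 8 reached 1 per kilobase of exon.

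Ratios are given here in reads, per kilobase of exon, per kilobase of principal transcript and per kilobase of exon with RefSeq spans, the last pair chosen after seeing the data. Emx1 / Emx2 (0.650 in RPKM) turned to 1.58, 2.18, 2.96 and 2.22. Pax6 / Emx2 (0.563) turned to 2.29 in reads and 2.33 by transcript and was 0.588 and 0.639 on the exon scales. Nr2f1 / Nr2f2 was 3.09, 5.24, 4.07 and 4.81. Dmrta2 / Dmrt3 was 6.71, 5.62, 5.49 and 5.66. Sp8 / Nr2f1 was 0.0425, 0.0475, 0.0305 and 0.0521. Pax6 / Nr2f1 was 0.260, 0.113, 0.291 and 0.128. Sp8 / Emx2 was 0.375, 0.247, 0.244 and 0.260. Both turns come from the length used, since every scale starts from the same RPKM, and RefSeq spans also change the estimated reads.

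No paired analysis was possible because the 3 libraries were given as 1 mean, which also left no replicate to leave out. The depth limits little: 3 reads are 0.0160 RPM, while Dmrt3, the lowest, had 1.92 RPM. Rescaling multiplies all levels by 1 factor and changes no ratio or order.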

Other observations

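Genes of other brain regions gave a further setting for the area factors. Among genes of the ventral telencephalon, Dlx6 stood at 0.291 RPKM and Nkx2-1 at 0.192, with Ebf1 the lowest above 0 in RPKM at 0.00779 and Gsx2 listed at 0. In RPM Ebf1 (3.04) stood above Dlx6 (1.52) and Nkx2-1 (0.950), but by exon length it was below both, at 0.312. None of 8 genes of the diencephalon, midbrain and hindbrain reached 0.1 RPKM, where 36.9% of all gene IDs did so. The highest of the 8 was Irx3 at 0.0626, with Otx2 at 0.0254, Tcf7l2 at 0.0191, En1 at 0.00454 and both Hoxa5 and Hoxb4 listed at 0. In RPM Tcf7l2 stood at 3.67, above Dmrt3 (1.92). By exon length none of the 8 reached 1, with Tcf7l2 the highest at 0.418. Of 5 hippocampal genes, Nfix stood at 6.89, Prox1 at 0.248, Zbtb20 at 0.238 and Lef1 at 0.0275 RPKM. In RPM Lef1 stood at 3.13 and Grik4 at 4.28. By exon length Nfix was the highest of the 5 at 94.2, above Lhx2 (41.4), and Zbtb20 stood at 5.94, beside 6.51 for Emx2.

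The next coding gene on either side of each area factor was also read out. Nr2f1 and Lhx2 stood above both of their neighbours in RPKM, in RPM and by exon length, while for the other area factors this depended on the scale or did not hold. Dmrt3 lies between its relatives Dmrt1, listed at 0, and Dmrt2 (0.430 RPKM, or 1.21 per kilobase of exon), and the gap from Dmrt2 to Dmrt3 was in the same direction on both scales. Nr2f2 and Sp8 each had a neighbour listed at 0, Gm10295 and Abcb5.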
